A study of Mus musculus with 9 samples.

Results

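The genes described here are 10 markers of dendritic cells (DCs), taken by symbol from a table of read counts for 23413 mouse genes: Flt3, Zbtb46, Xcr1, Clec9a, Batf3, Itgae, Cd209a, Ccr7, Siglech and Ccr9. The table came from RNA-seq of liver macrophages sorted as Kupffer cells (KCs), and all 10 genes had a row in it. The 9 libraries, each labelled as from a single mouse, formed 3 groups. The study's figure legend gives more mice per group than there are libraries, and how the 2 numbers relate is not stated. The first group was sorted cells from 2 mice on normal chow (NC). The second was cells from 3 vehicle-treated mice on a high-fat diet (HFD), and the third was cells from 4 HFD-fed mice given diphenyleneiodonium (DPI), a flavoenzyme inhibitor. By the study's account the mice were male C57BL/6 (B6) mice that entered the experiment at 5 weeks of age, HFD lasted 8 weeks, and DPI was given at 2 mg/kg every 5 days from week 3. No engineered allele is named for any group. The labels also mention purified cells exposed to DMSO or 500 nM DPI for 24 h. Which treatment the libraries received was taken from the series' design text and the study's methods, both of which describe treatment of the mice. The sort kept F4/80+CD11b+Gr1low cells, a gate that by the study's account holds other liver macrophages besides KCs and that did not select or exclude DCs by a DC marker.

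DCs take up antigen and present it to T cells. Conventional DCs (cDCs) depend on the growth factor receptor FLT3 and express the transcription factor ZBTB46. The type 1 lineage (cDC1) needs BATF3, takes up dead cells through CLEC9A and cross-presents to CD8 T cells, whereas the type 2 lineage (cDC2) mainly primes CD4 T cells. Plasmacytoid DCs (pDCs) make type I interferon. On maturation, cDCs switch on CCR7 and migrate to the draining lymph node. In the liver, DCs sit mostly around portal tracts, and they share CD11b, and at times low F4/80, with macrophages. In bulk RNA from a sorted population, fewer cells of a type and less RNA per cell cannot be told apart.

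Total counts ranged from 3534325 to 15585775 per library, with a median of 4918629, and the ribosomal transcript Rn45s took 27% to 44.5% of them. The labelled cell type was checked against a list of 11 KC genes, which summed to between 231 and 982 CPM. Marco was at or under 3 counts in 9 of 9 libraries, Timd4 in 7, Vsig4 in 6 and Clec4f in 3, while the general macrophage gene Csf1r had 1617 to 7753 counts. C6 was at or under 3 counts in 8 libraries, Folr2 in 6, Cd5l in 2 and Cd163 in 1, and Id3 (729 to 5064 counts), Nr1h3 and Slc40a1, which other cells also express, were above 3 in all 9. Marco, Timd4 and Vsig4, which are more restricted to KCs, were thus near absent in most libraries, which goes against the KC label. Clec4f, the gene the study used to target KCs, was above 3 counts in most libraries, with 244 counts in NC replicate 2 and 219 in DPI replicate 1. Cd5l reached 601 counts in DPI replicate 1. The KC genes were thus mixed, and by the study's account most of the sorted cells were KCs. A monocyte list (10 genes) summed to between 5250 and 11060 CPM in every library. CPM is the normalised read count, a gene's counts over the library total after scaling by the trimmed mean of M-values (TMM), and 3 counts correspond to between 0.184 and 1.02 CPM depending on the library. The order of levels among the markers was set per kilobase of exon, and sums and shares over several genes are in CPM.

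Averaged over all libraries, Ccr7 and Cd209a had the highest levels of the 10 markers, and Zbtb46, Itgae, Siglech and Ccr9 were close to the counting floor. On the scale of CPM per kilobase, averaged over the 9 libraries, Ccr7 stood at 63.3 ± 54.7 (SD, n = 9 libraries in 3 groups), Cd209a at 27.4 ± 15.6, Batf3 at 9.05 ± 5.13 and Flt3 at 3.04 ± 1.22. Clec9a and Xcr1 were both near 1 on that scale, at 1.00 ± 0.655 and 0.998 ± 0.340, and Siglech was at 0.558 ± 0.479. Zbtb46, Itgae and Ccr9 were lowest, at 0.161 ± 0.290, 0.144 ± 0.234 and 0.0896 ± 0.0880. The difference between the means was smaller than the larger SD for each neighbouring pair in this order except 3. It was 18.3 between Cd209a and Batf3, 6.01 between Batf3 and Flt3 and 2.04 between Flt3 and Clec9a, against larger SDs of 15.6, 5.13 and 1.22. Within NC the order on the same scale was Cd209a (14.3 ± 3.04), Batf3 (12.1 ± 1.09) and Ccr7 (11.8 ± 16.7), while Ccr7 came first in vehicle (89.6 ± 43.8) and DPI (69.3 ± 63.9).

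**Figure D1:**
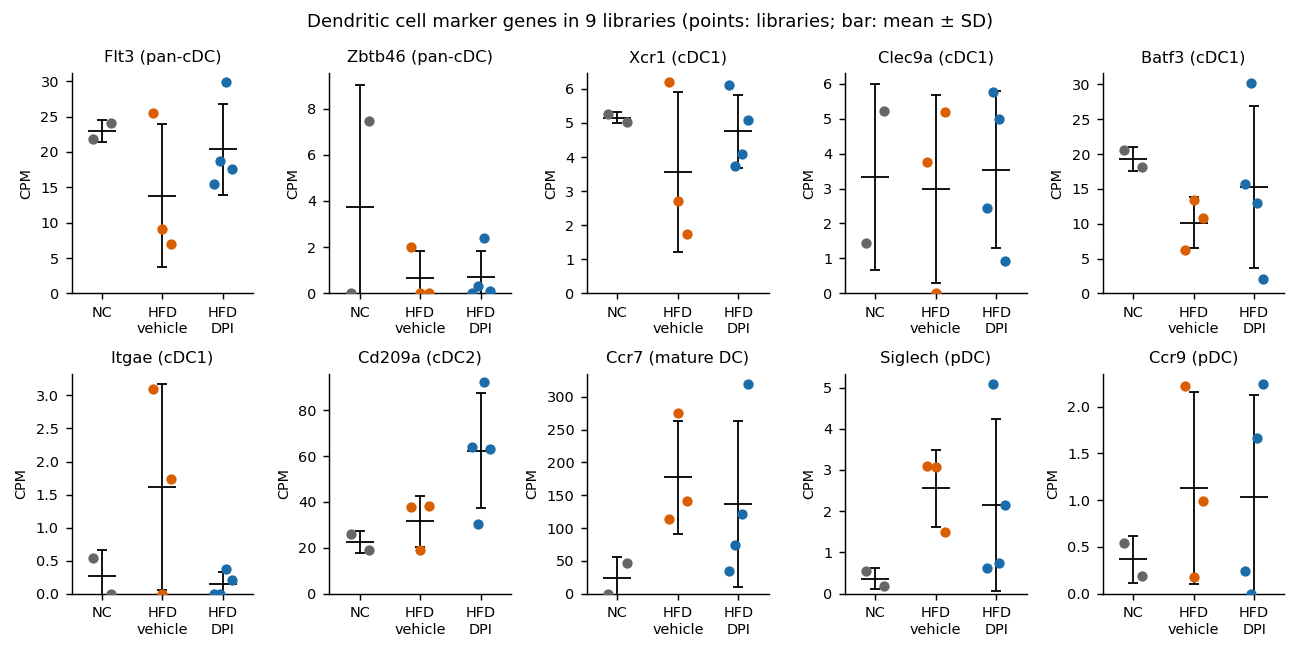
Level of each marker gene (y axis, CPM from 0, a separate scale per panel) in NC, HFD vehicle and HFD DPI libraries (x axis). Points are libraries and black bars give the group mean ± SD, cut off at 0. Cd209a is at 30.5 CPM or more in the 4 DPI libraries and at 26.0 or less in the 2 NC libraries, and Ccr7 reaches 319 CPM in a single DPI library.

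Of the 10 markers, 9 passed the filter on low counts and were tested. Itgae did not. A gene was called where the unadjusted p of edgeR's quasi-likelihood test was under 0.05 and the change was at least 2-fold. The study's methods give the same thresholds for edgeR, without the kind of test or whether p was adjusted. Between vehicle-treated HFD mice and NC mice 1 of the 9 tested markers was called, Ccr7, which was higher, against 11.7% of all genes tested (7.03% higher and 4.63% lower). Between DPI and vehicle none was called by edgeR or by DESeq2, against 2.84% (1.5% higher and 1.34% lower), while 1, Cd209a, had an unadjusted p under 0.05 with each tool. Between DPI and NC 1 was called, Cd209a, which was higher, against 9.29% (6.24% higher and 3.05% lower). These shares are close to those of all genes, and none of the 9 passed at a Benjamini-Hochberg adjusted p under 0.05 in any comparison, which 0.0614%, 0% and 0.00878% of all genes did. The count at an unadjusted p under 0.05, with no limit on the fold, was 1 in each comparison with edgeR (13%, 4.13% and 10.7% of all genes), and with DESeq2 it was 0, 1 and 1. The p-values printed below are edgeR's adjusted p-values or come from a two-sided exact permutation test on log2 CPM, whose smallest p is 0.1 for vehicle against NC, 0.0286 for DPI against vehicle and 0.0667 for DPI against NC. The 2 comparisons with NC share the 2 NC libraries, and the 2 comparisons with vehicle share the 3 vehicle libraries.

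**Figure D2:**
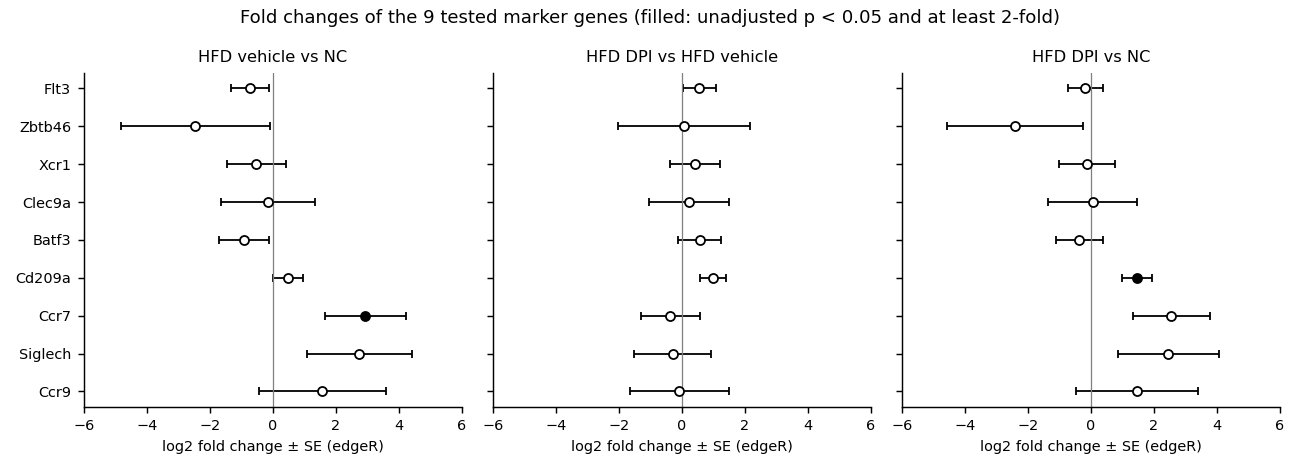
Log2 fold change of the 9 tested markers (x axis) with its standard error, by gene (y axis), in the 3 comparisons. Filled points are the called genes, Ccr7 in HFD vehicle against NC (2.93) and Cd209a in HFD DPI against NC (1.47). The bars of Zbtb46 are the widest, with standard errors of 2.09 to 2.38.

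Flt3, the receptor for the cytokine that drives DC development, was the best measured of the pan-cDC markers. It stood at 21.8 and 24.1 CPM in NC, at 25.5, 9.06 and 6.93 CPM in vehicle, and at 15.5, 18.7, 29.8 and 17.6 CPM in DPI. A pair of vehicle libraries lay below every other library, and the remaining vehicle library lay above both NC libraries, so the groups overlapped. The log2 fold change was -0.73 (SE 0.60, adjusted p = 0.644) for vehicle against NC and 0.56 (SE 0.51, adjusted p = 0.999) for DPI against vehicle by edgeR's quasi-likelihood test, Benjamini-Hochberg adjusted. Without vehicle replicate 1, Flt3 met the call rule in both comparisons, at -1.47 and 1.34. The gene lies at chr5:147330741-147400489 on the minus strand (GRCm38) and overlaps an antisense gene, Gm26597, and whether the counting used strand is not given in the sources used here.

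Zbtb46, the transcription factor that separates cDCs from monocytes and macrophages, had reads in few libraries. Its counts were 0 and 40 in NC, 9, 0 and 0 in vehicle, and 0, 1, 13 and 1 in DPI. Only 3 libraries, 1 of each group, had more than 3 counts, and the sign of its difference between DPI and vehicle turned without vehicle replicate 2 or 3, where it had 0 counts. No difference was detectable at this depth (exact permutation p = 0.7 for vehicle against NC and 0.733 for DPI against NC, and adjusted p = 0.999 for DPI against vehicle with edgeR).

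Among the cDC1 markers, Xcr1 encodes the receptor for XCL1, which T cells and NK cells release. Its counts were 29 and 27 in NC, 28, 15 and 7 in vehicle, and 100, 11, 22 and 50 in DPI. After scaling, the means were 5.15 ± 0.17 CPM in NC (n = 2), 3.55 ± 2.35 in vehicle (n = 3) and 4.76 ± 1.08 in DPI (n = 4). A pair of vehicle libraries, at 2.72 and 1.73 CPM, lay below every other library, as for Flt3, while vehicle replicate 1 was the highest of all. The log2 fold change was -0.54 (SE 0.94) for vehicle against NC and 0.43 (SE 0.80) for DPI against vehicle. Without vehicle replicate 1 these were -1.15 (SE 1.05) and 1.08 (SE 0.94), and neither was called. Across the 9 libraries the 2 genes had a Pearson r of 0.788 on log2 CPM, a description over libraries that differ in depth and group.

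Clec9a encodes a lectin that binds actin exposed on dead cells. Its counts were 8 and 28 in NC, 17, 0 and 21 in vehicle, and 40, 17, 27 and 9 in DPI. The groups overlapped, from 1.46 to 5.22 CPM in NC, 0 to 5.20 in vehicle and 0.917 to 5.77 in DPI, and the group means were 3.34 ± 2.66, 2.99 ± 2.69 and 3.53 ± 2.25 CPM. Clec9a at chr6:129408862-129424763 overlaps Clec1b on the same strand, so that reads in the shared stretch could belong to either gene.

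Batf3, the transcription factor on which cDC1 depend, stood at 20.6 and 18.1 CPM in NC, at 6.21, 13.4 and 10.9 CPM in vehicle, and at 15.7, 30.2, 12.97 and 2.04 CPM in DPI. All 3 vehicle libraries lay below both NC libraries, while the DPI libraries covered the lowest and the highest level of all. The difference between vehicle and NC, a log2 fold change of -0.92 (SE 0.80, adjusted p = 0.669, edgeR's quasi-likelihood test, Benjamini-Hochberg adjusted), did not pass the test. BATF3 is also made by activated T cells.

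Itgae encodes CD103, an integrin of migratory cDC1 and of tissue-resident T cells. Its counts were 3 and 0 in NC, 14, 0 and 7 in vehicle, and 0, 0, 2 and 2 in DPI. Only a pair of vehicle libraries had more than 3 counts. The exact permutation p was 0.5 for vehicle against NC, 0.171 for DPI against vehicle and 0.8 for DPI against NC. Itgae overlaps Haspin on the opposite strand. Summed over the 4 cDC1 markers, the level was 27.8 and 28.3 CPM in NC, 16.1 to 19.6 CPM in vehicle and 8.25 to 39.7 CPM in DPI.

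Cd209a encodes a lectin related to human DC-SIGN that marks cDC2 and monocyte-derived DCs in mice. It stood at 26.0 and 19.2 CPM in NC. It stood at 37.9, 18.8 and 38.1 CPM in vehicle and at 63.8, 30.5, 92.3 and 63.1 CPM in DPI. All 4 DPI libraries lay above both NC libraries, and 3 of the 4 lay above every vehicle library, with DPI replicate 2 among the vehicle libraries. The mean rose from 22.6 ± 4.81 CPM in NC (n = 2) to 62.4 ± 25.2 CPM in DPI (n = 4), a log2 fold change of 1.47 (SE 0.48, adjusted p = 0.347, edgeR's quasi-likelihood test, Benjamini-Hochberg adjusted). The exact permutation p of this difference was 0.0667, the smallest that 4 against 2 libraries can give. Against the vehicle mean of 31.6 ± 11.1 CPM the log2 fold change was 0.99 (SE 0.41, adjusted p = 0.999, edgeR), which passed the threshold on the unadjusted p and fell just short of 2-fold (exact permutation p = 0.114). Between vehicle and NC it was 0.48 (SE 0.48, adjusted p = 0.729, edgeR).

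The call for Cd209a between DPI and NC was kept in 18 of 19 alternatives. Without NC replicate 2 the difference between DPI and NC was 1.29 and was no longer called. Whether Cd209a was called between DPI and vehicle depended on single libraries and on the scaling. The difference between DPI and vehicle was called at 1.205 without DPI replicate 2, at 1.13 without vehicle replicate 1 or 3, and at 1.11 with scaling by library size only, while without vehicle replicate 2 it was 0.72 and without DPI replicate 3 it was 0.74. The summed level of the monocyte list was 6119 and 6755 CPM in NC and 5250 to 11060 CPM in DPI. None of the 10 monocyte genes was at 0 in any library, and none was called between DPI and NC. An eosinophil list (5 genes) summed to 5.59 and 6.55 CPM in NC and 6.93 to 8.69 CPM in vehicle, and in DPI to 92.9, 98.4, 5.37 and 70.1 CPM. Its defining genes Prg2 and Epx were called in DPI against both other groups. The part of monocytes and eosinophils in the Cd209a levels was not tested.

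Promoter sequence was read for the members from RefSeq (GRCm38.p6), where 8 of the 10 matched. Ccr7 and Itgae were not matched. Cd209a is shown because it is the called marker with an entry: the 250 bases before its start, chr8:3748985-3749234, minus strand, 5′ to 3′, with the capitals marking GGAAGT, a core recognised by PU.1 and other ETS factors. PU.1 is a transcription factor that macrophages and DCs share.
Cd209a: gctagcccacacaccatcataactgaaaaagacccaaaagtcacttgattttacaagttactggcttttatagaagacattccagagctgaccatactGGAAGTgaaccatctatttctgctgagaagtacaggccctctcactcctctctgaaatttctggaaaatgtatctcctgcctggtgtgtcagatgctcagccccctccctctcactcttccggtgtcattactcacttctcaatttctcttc
Counted on both strands in windows of the same length, GGAAGT was present in 5 of the 8 member promoters (Batf3, Cd209a, Flt3, Siglech and Xcr1) and in 19.7% of 32851 promoters. This core was chosen after the sequences had been read. Another PU.1 form, GAGGAA, which shares its GGAA with that core, was in 1 of 8 against 23.3%. The AP-1 site TGANTCA, which overlaps neither, was in 1 of 8, Zbtb46, against 6.75%. Cd209a also has near paralogs in mouse, and the counting could have split reads among them.

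Ccr7, the chemokine receptor that brings mature DCs to lymph nodes and is also carried by naive T cells and B cells, ranged from 0 to 319 CPM. Its counts were 0 and 250 in NC, 516, 1524 and 572 in vehicle, and 554, 218, 656 and 3132 in DPI. On the CPM scale these are 0 and 46.6 in NC, 114, 276 and 142 in vehicle, and 33.9, 74.0, 122 and 319 in DPI. All 3 vehicle libraries lay above both NC libraries, while DPI libraries ranged from below NC replicate 2 to above every vehicle library. The mean rose from 23.3 ± 33.0 CPM in NC (n = 2) to 177 ± 86.6 CPM in vehicle (n = 3), a log2 fold change of 2.93 (SE 1.28, adjusted p = 0.362, edgeR's quasi-likelihood test, Benjamini-Hochberg adjusted). The exact permutation p was 0.1, the smallest that 3 against 2 libraries can give. In DPI the mean was 137 ± 127 CPM (n = 4), with a log2 fold change of 2.56 (SE 1.23, adjusted p = 0.479, edgeR) against NC and of -0.37 (SE 0.93, adjusted p = 0.999, edgeR) against vehicle.

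NC replicate 1, where Ccr7 had 0 counts, bore on that call. A count of 0 allows up to 0.546 CPM in that library. Without it the log2 fold change between vehicle and NC was 1.94 (SE 0.95) and was not called, and without NC replicate 2 the only NC library left had 0 counts, so that the comparison says nothing of stability. The call was also lost without vehicle replicate 2 (2.46), without vehicle replicate 3 (3.12) and without DPI replicate 3 (2.93). It was lost with scaling by library size only (2.69), with DESeq2 (2.90) and with the 2 groups fitted alone (2.93). Between DPI and NC, Ccr7 was called without DPI replicate 1, at 2.88, and also without NC replicate 2.

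Markers of B cells were lowest and highest in the same libraries as Ccr7, and those of T and NK cells shared the lowest library but not the highest. A B and plasma cell list (10 genes) summed to 30 and 166 CPM in NC, 164, 366 and 275 CPM in vehicle, and 119, 118, 303 and 507 CPM in DPI. Its lowest library, NC replicate 1, and its highest, DPI replicate 4, were also the lowest and highest for Ccr7. Of the 10 genes 2 were called higher in vehicle than in NC, Cd79b and Blk, against 7.03% of all genes tested. In NC replicate 1 the B cell genes at 0 included Ms4a1, Pax5, Cr2 and Blk. A T and NK cell list (14 genes) summed to 121.5 and 383 CPM in NC, 340 to 471 CPM in vehicle and 314 to 612 CPM in DPI. It was also lowest in NC replicate 1 and highest in DPI replicate 2 (612 CPM), where Ccr7 was at 74.0 CPM, while DPI replicate 4, highest for Ccr7, was at 321.5 CPM. Of its 13 tested genes 3 were called higher in vehicle than in NC, Cd3e, Lck and Il2rb, against 7.03% of all genes tested. In NC replicate 1 Cd3g, Cd4 and Ncr1 were at 0. A neutrophil list (10 genes) was highest in DPI replicate 4 as well, at 5548 CPM. Its lowest library was DPI replicate 2 (882 CPM), with NC replicate 1 at 1225 CPM. The sort on F4/80 and CD11b, which most B and T cells lack, would remove most of them, and the part of these cells in the Ccr7 levels was not tested.

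**Figure D3:**
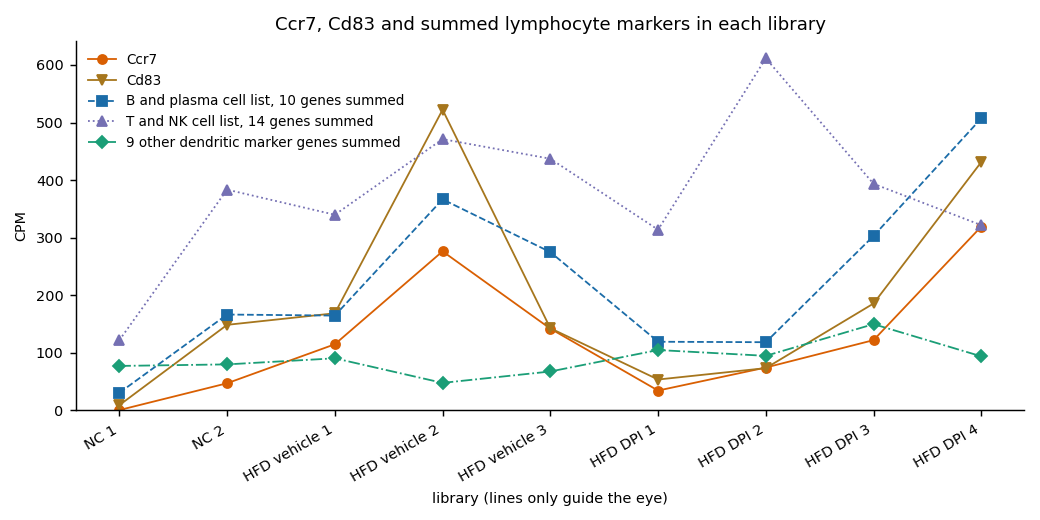
Level in CPM (y axis, from 0) of Ccr7, of Cd83, of the summed B and plasma cell list, of the summed T and NK cell list and of the 9 other DC markers summed, in each of the 9 libraries (x axis). Ccr7, Cd83 and the B cell list are lowest in NC replicate 1 (0, 8.55 and 30 CPM), and Ccr7 and the B cell list are highest in HFD DPI replicate 4 (319 and 507 CPM), while the 9 other DC markers stay between 47.3 and 149 CPM.

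Siglech, a surface lectin of pDCs, was near the floor in NC. Its counts were 3 and 1 in NC, 14, 17 and 6 in vehicle, and 10, 15, 4 and 21 in DPI. Every HFD library was above both NC libraries in CPM. From 37 counts in vehicle against 4 in NC, the ratio per total was 7.14 (95% interval 2.56 to 27.6, counting error only), and the difference was not called (adjusted p = 0.505, edgeR; exact permutation p = 0.1). For DPI against NC the ratio was 3.94 (95% interval 1.44 to 15, counting error only) and the adjusted p = 0.604 by edgeR.

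Ccr9, a chemokine receptor of pDCs and of gut-homing T cells, was the lowest marker per kilobase of exon averaged over all 9 libraries, though not within vehicle or DPI. Its counts were 3 and 1 in NC, 10, 1 and 4 in vehicle, and 4, 0, 9 and 22 in DPI. The groups overlapped, the ratio of vehicle to NC was 2.89 (95% interval 0.922 to 12.0, counting error only), and the exact permutation p = 0.5. The locus overlaps Lztfl1 and Slc6a20a on the opposite strand.

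The make-up of the marker signal differed among libraries. Ccr7 held 0% and 37.0% of the summed CPM of the 10 markers in NC, 56.0% to 85.4% in vehicle and 24.5% to 77.4% in DPI. Without Ccr7, the 9 other markers summed to 76.7 and 79.4 CPM in NC, 47.3 to 90.0 CPM in vehicle and 93.4 to 149 CPM in DPI. With Cd209a also left out, the remaining 8 summed to 50.7 and 60.2 CPM in NC, 28.4 to 52.1 CPM in vehicle and 30.4 to 63.8 CPM in DPI. Summed over all 10 markers, the ranges overlapped, at 204 to 323 CPM in vehicle and 138 to 412.5 CPM in DPI. The vehicle and DPI ranges were thus separate, at 90.0 against 93.4 CPM, only with Ccr7 left out and Cd209a counted. For scale, the macrophage gene Emr1, which encodes the F4/80 antigen used in the sort, stood at 126.6 ± 17.2 CPM in NC (n = 2), 61.2 ± 6.13 in vehicle (n = 3) and 88.1 ± 37.1 in DPI (n = 4). Emr1 was called lower in vehicle than in NC, by 1.05 on the log2 scale (SE 0.38, adjusted p = 0.293, edgeR with Benjamini-Hochberg adjustment). Itgam, which encodes the CD11b used in the sort, had a log2 fold change of -0.66 (SE 0.36, adjusted p = 0.457, edgeR) for vehicle against NC and was not called in any comparison.

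The other genes of these lineages were taken from 7 lists covering pan-cDC, cDC1, cDC2, mature DC and pDC genes, DC transcription factors and the FLT3 and GM-CSF pathway. Leaving out the 10 markers, 54 of 61 genes were tested. Between vehicle and NC 7 were called higher and 2 lower, between DPI and vehicle 0 higher and 3 lower, and between DPI and NC 5 higher and 1 lower. That makes 16.7%, 5.56% and 11.1% of them called, against the shares over all genes given above (11.7%, 2.84% and 9.29%). No gene of these lists passed at an adjusted p under 0.05 with edgeR in any comparison, and 10, 5 and 7 of the 54 had an unadjusted p under 0.05.

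Of the 7 lists, mature DC genes had the highest median between vehicle and NC. Of 9 tested genes 3 were called higher (Ccr7, Ccl22 and Il4i1), or 33.3%, against 7.03% of all genes tested. The median log2 fold change was 1.88, or 1.82 with genes at 0 in a whole group set to their bound, beside 0.03 over all genes tested. The B and plasma cell list, whose cells also express Ccr7 and Cd83, had a median of 1.59 in the same comparison, with 9 of 10 values positive, and its part in the mature DC list was not tested. Ccl22, a chemokine that draws regulatory T cells, had 3 and 1 counts in NC, 139, 43 and 184 in vehicle, and 102, 28, 172 and 127 in DPI. Every HFD library was well above both NC libraries, and the ratio of vehicle to NC was 70.6 (95% interval 27.3 to 260, counting error only, adjusted p = 0.0631, edgeR with Benjamini-Hochberg adjustment). For DPI against NC it was 33.8 (95% interval 13.1 to 124, adjusted p = 0.109, edgeR).

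Il4i1, an amino acid oxidase of activated antigen-presenting cells, had 0 and 1 counts in NC, 1, 41 and 33 in vehicle, and 45, 0, 47 and 30 in DPI. It was called higher in both HFD groups than in NC (adjusted p = 0.333 and adjusted p = 0.445, edgeR), although 1 library of each HFD group had at most 1 count. The first call was lost without NC replicate 1 or vehicle replicate 2 or 3, and the second without NC replicate 1, vehicle replicate 2 or DPI replicate 3. The calls of Ccl22 held with any 1 library left out. Cd83, a surface protein of mature DCs and activated B cells, stood at 8.55 and 148 CPM in NC, 168, 522 and 142 CPM in vehicle, and 53.1, 72.9, 185 and 431 CPM in DPI, and was not called (adjusted p = 0.478 for vehicle against NC, edgeR). As with Ccr7, NC replicate 1 was lowest. Relb, an NF-kB subunit needed for DC maturation, had a log2 fold change of -0.71 (SE 0.55, adjusted p = 0.615, edgeR) for vehicle against NC. Between DPI and vehicle none of the 9 was called by edgeR, 8 of 9 log2 fold changes were negative, and the median of the 9 was -0.58, beside 0.04 over all genes.

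**Figure D4:**
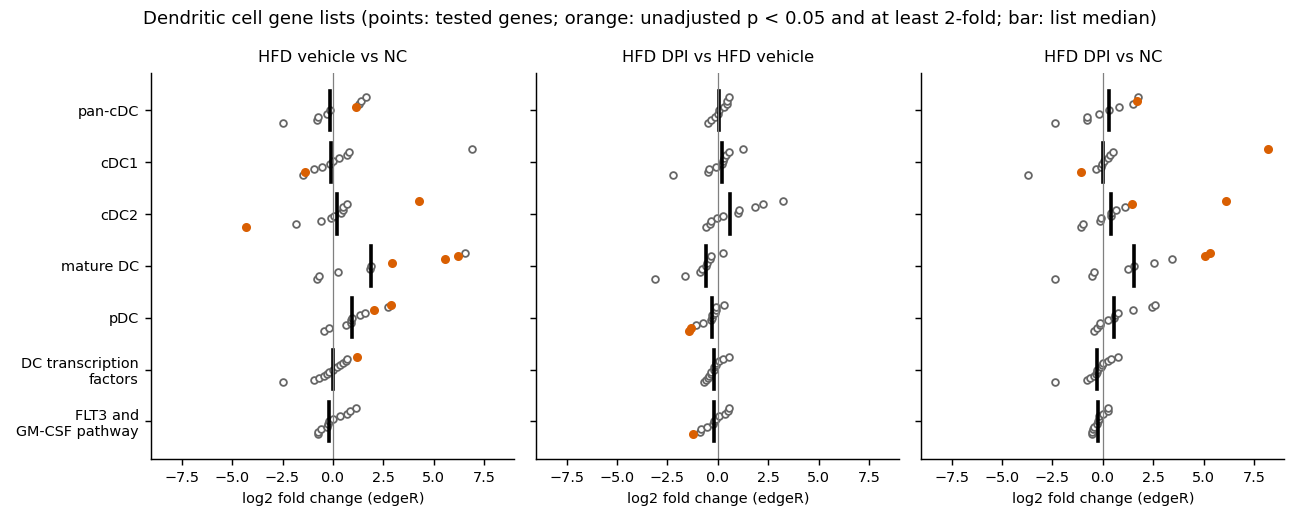
Log2 fold change (x axis) of each tested gene in 7 DC gene lists (y axis) for the 3 comparisons. Points are genes, called genes are orange, and black bars are list medians. The mature DC list has its median at 1.88 for HFD vehicle against NC and at -0.58 for HFD DPI against HFD vehicle, and the pDC list at 0.95 and -0.31.

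In the pDC list of 11 tested genes, 2 were called higher in vehicle than in NC (Ly6d and Tlr9), against 7.03% of all genes tested. In DPI 2 were called lower than in vehicle (Tlr7 and Tlr9), against 1.34%. Tlr9, the endosomal sensor of CpG DNA in pDCs and B cells, had 58 and 61 counts in NC, 332, 24 and 228 in vehicle, and 271, 76, 63 and 118 in DPI. It was high in a pair of vehicle libraries, whereas vehicle replicate 2 had fewer reads than either NC library, and the log2 fold changes were 2.03 (SE 0.86, adjusted p = 0.352) and, for DPI against vehicle, -1.45 (SE 0.66, adjusted p = 0.999) by edgeR. Without vehicle replicate 1 they were 1.5 and -0.88, and neither call held. The first was also lost without vehicle replicate 3 or either NC library, and the second without vehicle replicate 3 or DPI replicate 1, 3 or 4. Tlr7, the sensor of single-stranded RNA, stood at 72.6 and 49.2 CPM in NC, 193, 50.9 and 96.5 CPM in vehicle, and 53.1, 35.3, 38.5 and 51.3 CPM in DPI. Vehicle replicate 1 was the highest, and vehicle replicate 2 lay among the DPI libraries. Between the vehicle mean of 113 ± 72.4 CPM and the DPI mean of 44.6 ± 8.96 CPM the difference was a log2 fold change of -1.34 (SE 0.39, adjusted p = 0.999, edgeR with Benjamini-Hochberg adjustment), and without vehicle replicate 1 it was -0.72 and was not called. Ly6d, a surface protein of lymphoid progenitors and B cells, had 0 and 29 counts in NC and 88 to 96 counts in vehicle, and its call was lost without NC replicate 1 (1.88), without any of the 3 vehicle libraries or without DPI replicate 2. The genes of the list with the highest mean CPM, not scaled for length, were Pld4, Tlr7 and Bst2, which macrophages also express, and the phospholipase gene Pld4 was at 528 ± 80.7, 384 ± 24.6 and 471 ± 126 CPM in NC, vehicle and DPI and was not called.

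In the cDC2 list of 10 tested genes, Mgl2 joined Cd209a as called higher between DPI and NC. Mgl2 encodes CD301b, a lectin of dermal cDC2 and of alternatively activated macrophages. It had 0 and 1 counts in NC, 19, 3 and 7 in vehicle, and 175, 24, 38 and 46 in DPI. The groups were in the same order as for Cd209a, with every DPI library above every NC library, and the ratio of DPI to NC was 89.1 (95% interval 15.9 to 3530, counting error only, adjusted p = 0.206, edgeR with Benjamini-Hochberg adjustment). This call held with any 1 library left out. Mgl2 was also called higher in vehicle than in NC, with a ratio of 22.4 (95% interval 3.71 to 914, counting error only, adjusted p = 0.289, edgeR), and that call was lost without NC replicate 1. Between DPI and vehicle the log2 fold change of Mgl2 was 1.82 (SE 0.98, adjusted p = 0.999, edgeR). Esam, an adhesion molecule of a cDC2 subset and of endothelium, fell between NC and vehicle, from 53 and 32 counts to 0, 1 and 4, a call that was lost without NC replicate 1 or vehicle replicate 1 or 2. In DPI it had 81, 26, 0 and 13 counts, with a log2 fold change of 3.24 (SE 1.57, adjusted p = 0.999, edgeR) against vehicle and of -1.06 (SE 1.44, adjusted p = 0.840, edgeR) against NC, and neither was called. The endothelial list (7 genes) fell in summed level from 120 and 185 CPM in NC to between 9.42 and 12.9 CPM in vehicle. It had 3 of 7 genes called lower (Stab2, Clec4g and Kdr) and 1 called higher (Pecam1), against 4.63% and 7.03% of all genes tested. In DPI it summed to 139, 76.0, 4.26 and 26.6 CPM, Stab2 and Clec4g were called higher than in vehicle, and Pecam1 was called higher than in NC. The part of endothelial cells in the Esam level was not tested. The widely expressed members of the list, Sirpa, Notch2 and Klf4, were not called in any comparison.

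In the cDC1 list of 10 tested genes, Irf8, the transcription factor of cDC1 and pDC fate, was level at 165 ± 13.2, 168 ± 33.1 and 160 ± 43.5 CPM in NC, vehicle and DPI. Naaa, a lipid amidase, was called lower in vehicle and in DPI than in NC, at 236 ± 68.8, 90.5 ± 4.67 and 112 ± 52.8 CPM (log2 fold change -1.38, SE 0.41, adjusted p = 0.221, and -1.07, SE 0.38, adjusted p = 0.367, edgeR). The adhesion gene Cadm1 had 0 counts in both NC libraries, 0, 14 and 17 in vehicle, and 177, 32, 0 and 1 in DPI, and it was called between DPI and NC on the reads of 2 of 4 DPI libraries, a call lost without either of those (replicates 1 and 2) or without either NC library. The call of Naaa held with any 1 library left out for vehicle against NC, and for DPI against NC it was lost without NC replicate 1 (-0.73), DPI replicate 3 (-0.87) or DPI replicate 4 (-0.97). Cd24a, also expressed by B cells and neutrophils, was not called.

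Among pan-cDC genes, Itgax (CD11c) stood at 55.5 ± 35.2, 31.7 ± 4.89 and 32.5 ± 16.8 CPM in NC, vehicle and DPI and was not called. Amica1, a junctional adhesion protein of leukocytes, was called higher in vehicle than in NC (log2 fold change 1.15, SE 0.46, adjusted p = 0.335, edgeR), and Dpp4 (CD26), which T cells also carry, was called higher in DPI than in NC (1.69, SE 0.66, adjusted p = 0.410, edgeR). The first call was lost without NC replicate 1 (0.60) or vehicle replicate 1 (1.08), and the second without NC replicate 1 (1.21) or DPI replicate 3 (1.52). H2-Oa, a chain of the MHC class II modulator H2-O that B cells also express, had 3 and 55 counts in NC, 107, 63 and 62 in vehicle, and 123, 26, 71 and 296 in DPI. As for Ccr7, NC replicate 1 was lowest and DPI replicate 4 highest in CPM, and H2-Oa was not called (1.64, SE 0.97, adjusted p = 0.489 for vehicle against NC, edgeR). Of 13 transcription factors, Id2, which cDC1 and NK cells need, was called, higher in vehicle than in NC at 552 ± 104 against 242 ± 20.9 CPM (1.19, SE 0.43, adjusted p = 0.293, edgeR), and not without NC replicate 1 (1.12). Of the 11 tested genes of the FLT3 and GM-CSF pathway, Csf2rb2, a receptor chain of the IL-3 family, was called lower in DPI than in vehicle, at 43.2 ± 1.80 against 103.5 ± 52.0 CPM (-1.26, SE 0.36, adjusted p = 0.999, edgeR), and not without vehicle replicate 3 (-0.93). Its paralog Csf2rb was lower by less than 2-fold (-0.83, SE 0.31, adjusted p = 0.999, edgeR), and the 2 genes are similar enough that reads could be split between them. Csf2ra, the alpha chain of the GM-CSF receptor, was at 219 ± 8.51, 191 ± 38.3 and 179 ± 30.9 CPM in NC, vehicle and DPI. Socs3, an inhibitor of cytokine signalling, was at 434 ± 234, 259 ± 120 and 325 ± 93.1 CPM, and neither gene was called in any comparison.

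For each tested marker, the 2 genes with the highest Pearson r of log2 CPM over the 9 libraries were looked up. The values describe libraries that share depth, group and sort, and with 11393 genes to choose from a high r is bound to be found for any gene. For Ccr7 they were Vti1a (r = 0.986) and Gpr171 (r = 0.981), the latter a receptor gene expressed in T cells, and for Cd209a Triap1 (0.943) and Tmem19 (0.897). For Flt3 they were 2410089E03Rik (0.948) and Ppp3cb (0.947), for Zbtb46 Ugt1a1 (0.966) and Rarb (0.936), and for Batf3 Hspe1 (0.957) and Hsdl1 (0.955). For Xcr1 they were Crtap (0.957) and Senp3 (0.931), for Clec9a Mpi (0.884) and Gpr155 (0.883), for Siglech Smpd5 (0.929) and Disp1 (0.911), and for Ccr9 Adipor2 and 2410004P03Rik (both 0.936). None of these most similar genes was another DC marker. Among the markers themselves, the highest r was that of Flt3 and Xcr1 (0.788), and the lowest was that of Batf3 and Ccr9 (-0.797).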

How the data were processed

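RNA of cells sorted as KCs, by the labels from 9 mice, was sequenced as poly(A) libraries. The authors deposited a table of raw counts per gene symbol for the mm10 genome. The submitters' processing notes name TopHat2 and edgeR, whereas the study's methods name bowtie2 and RSEM, and which tool made these counts is not settled by the sources used here. All values in the table were whole numbers. The 10 markers, the gene lists and the tests were chosen with earlier results of these data known. The counts were analysed with edgeR 4.0.16 in R 4.3.3: genes passing filterByExpr (11393 of 23413) were scaled by TMM and fitted by a quasi-likelihood model with the 3 groups as terms, so that all 9 libraries shared 1 estimate of spread (common biological coefficient of variation 0.65). The quasi-likelihood test gave the 3 contrasts, and p-values were adjusted by Benjamini-Hochberg over all tested genes. Calls used an unadjusted p under 0.05 and at least 2-fold. The fit was tested on simulated data with known changes. Itgae failed the filter and was compared by a two-sided exact permutation test on log2 CPM with a prior count of 2. SDs are over libraries, labelled as separate mice. Intervals on ratios of counts are exact at 95%.

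Levels per kilobase used the union of exons of GENCODE M21 (GRCm38, the same assembly as mm10). Genes were named by a rule: the 10 markers; from each DC list the 3 other tested genes with the highest mean CPM and those called in any comparison; the 2 genes most correlated with each tested marker; the sorting genes Emr1 and Itgam; and, for other cell types, summed levels and genes that a result turned on. Alternatives were another normalization (RLE or library size only), no filter or a minimum of 10 counts in each sample, DESeq2 1.42.0, a likelihood ratio test, 2 groups fitted alone, a replicate block, leaving out Rn45s, thinning to the smallest total, leaving out each library, a prior count of 0.5 and the length of the longest transcript. Leaving out each library for called genes of the DC lists that are not among the 10 markers was added after seeing the data.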

Additional observations from a re-analysis of the deposited data

Results flagged for a closer look

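In the DPI group, the only one with at least 4 libraries, the highest and lowest library of each of the 10 markers were compared with the others by Dixon's criterion. A single value stood apart. Zbtb46 was at 2.41 CPM (13 counts) in DPI replicate 3, whereas the other 3 DPI libraries had 0, 1 and 1 counts. About 1 in 20 groups is picked out by chance, and 10 genes were examined.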

How the results depend on the processing

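The number of called markers was 1, 0 and 1 (vehicle against NC, DPI against vehicle, DPI against NC). For vehicle against NC it became 0 with library size only, at least 10 counts in every sample (where 3 markers were tested and Ccr7 was not), DESeq2 or 2 groups only, and it ranged from 0 to 2 with 1 library left out. For DPI against vehicle it became 1 with library size only and ranged from 0 to 2 with 1 library left out. For DPI against NC it became 2 with no filter, the likelihood ratio test or thinning, and ranged from 1 to 2 with 1 library left out. Beyond the construction of each alternative, the cause was not tested. Library size only moved the median over all tested genes to -0.26, 0.12 and -0.17 on the log2 scale.

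Among the alternative values of single-gene fold changes, 434 kept their direction and side of the call rule, 11 became called, 8 lost the call and 22 turned, none of the latter called. Leaving out 1 library at a time gave Zbtb46 fold changes (log2) of -7.65 to 5.20 for vehicle against NC, -0.52 to 5.29 for DPI against vehicle and -3.39 to 5.28 for DPI against NC, turning without NC replicate 2 (against NC) and without vehicle replicate 2 or 3. Clec9a ranged from -0.81 to 1.04 for vehicle against NC (turned without NC replicate 2, 1.04, or vehicle replicate 2, 0.42), from -0.36 to 0.90 for DPI against vehicle (turned without vehicle replicate 2 or DPI replicate 2, -0.10) and from -0.57 to 1.28 for DPI against NC (turned without NC replicate 1, DPI replicate 2, -0.23, or DPI replicate 3, -0.17). For DPI against vehicle, Ccr7 ranged from -1.22 to 0.10 (turned without vehicle replicate 2), Siglech from -1.13 to 0.0329 (turned without DPI replicate 1) and Ccr9 from -0.59 to 0.29 (turned without DPI replicate 1 or 2). For DPI against NC, Xcr1 reached 0.0253 (without DPI replicate 2) and Batf3 ranged from -0.88 (without DPI replicate 2) to 0.0136 (without DPI replicate 4). With library size only, Clec9a for DPI against NC (-0.19) and Ccr9 for DPI against vehicle (0.0483) turned. With the replicate block, Zbtb46 for DPI against vehicle (-1.0), Xcr1 for DPI against NC (0.0385) and Ccr9 for DPI against NC (-0.76) turned. With the longest transcript Flt3 stood at 4.75 CPM per kilobase and kept the fourth place, while Itgae and Ccr9 changed places.

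Same-numbered libraries did not deviate together (correlations -0.0222 to 0.0841), so the numbers were not taken to pair the mice. With the replicate block 1, 0 and 1 markers were called. The exact permutation p of Itgae stayed above 0.05 with a prior count of 0.5. Counts of 3 or fewer limited Zbtb46, Itgae, Siglech and Ccr9. With 2 NC libraries, no exact permutation test against NC could reach 0.05.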
